A study of Mus musculus with 8 samples.

Results

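The 8 genes described here encode parts of the contractile actin machinery and the transcription factor that drives many of those genes. They were Srf, the actin genes Actb, Actg1 and Acta2, the filament-associated genes Tagln and Tpm1, and the non-muscle myosin genes Myl9 and Myh9. Each gene stood for a window of 40 to 130 kb on the mouse build mm9, 520 kb in all, and every ATAC-seq peak overlapping a window was taken. Peaks of different libraries that shared at least 1 bp were joined into regions, which gave 71 regions in the windows of 45915 in all. The regions were thus taken by position within the windows, while the genes themselves were chosen with earlier results of these data known.

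The cells were NIH3T3, an established line of mouse embryo fibroblasts, grown in DMEM with newborn calf serum and kept for 24 h on G128 or on G2. ATAC-seq marks open chromatin by inserting adapters with the Tn5 transposase where DNA is exposed. Each culture had 2 ATAC-seq libraries, called replicate 1 and replicate 2, with peaks listed separately for each. The study concerns hydrogels of polyvinyl alcohol and gelatin and how cells adhere to them, but the labels do not spell out what G128 and G2 are. Both groups came from the same line with no other agent named, and nothing says whether the replicates were separate cultures, so tests measure only the spread between these libraries, which may be technical. The 4 RNA libraries were not analysed here, so nothing below concerns expression. In pooled cells, a site open in fewer cells and a site cut less often per cell cannot be told apart.

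Serum response factor, the product of Srf, binds a short element called the CArG box in the control regions of cytoskeletal and muscle genes. Its coactivators of the MRTF family bind monomeric actin, and when actin is built into filaments they are freed and enter the nucleus. The genes switched on this way include actins, tropomyosins, myosin light chains and Srf itself. In fibroblasts the circuit is known for following spreading, tension and adhesion, and the series compares conditions of adhesion.

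Of the 8 genes, 6 had an entry in the RefSeq promoter table, which holds 250 bases before and 50 bases after gene starts on GRCm38.p6. Actb and Tagln had none. A complete CArG box, matched on both strands at once because its pattern reads the same on both, was present in the promoters of 3 genes, Srf, Actg1 and Myl9. Srf held 2 boxes. Among all 32851 promoters of that length, 1.63% held a complete box and 0.0183% held at least 2. Counting also boxes with 1 letter off, 5 of the 6 genes had one against 21.1% of all promoters, and Myh9 had neither kind. The genes were picked as actin cytoskeleton and SRF target loci, so these shares are no independent test of SRF targets. The stretches below carry the boxes of Srf, Actg1 and Myl9, and those of Acta2 as a case with 1 letter off, with the boxes in capitals. They lie on GRCm38.p6 at chr17:46556190-46556269 (minus strand), chr11:120348551-120348610 (minus), chr2:156775278-156775337 (plus) and chr19:34255374-34255482 (minus).
Srf: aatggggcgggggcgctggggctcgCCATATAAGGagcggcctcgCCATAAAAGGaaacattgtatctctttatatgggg
Actg1: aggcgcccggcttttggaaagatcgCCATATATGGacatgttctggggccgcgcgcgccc
Myl9: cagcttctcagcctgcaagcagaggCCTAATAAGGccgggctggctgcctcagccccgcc
Acta2: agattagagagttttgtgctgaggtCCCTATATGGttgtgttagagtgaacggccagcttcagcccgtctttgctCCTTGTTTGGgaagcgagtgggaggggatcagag
The boxes began 82 and 62 bases before the Srf start, 90 before the Actg1 start and 161 before the Myl9 start. In Acta2, the boxes with 1 letter off began 84 and 34 bases before the start. A match of letters is a description and not a binding site. The peaks are on mm9 and the promoters on GRCm38.p6, so no peak was placed on a promoter, and regions are described by their position in the window alone.

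The height of a peak was read as its summit over the background, that is, the number of overlapping sequenced intervals at the summit divided by the mean background of that library. This is a height per base. It was compared between genes without correction for local DNA copies or mappability, which were not measured. The background mean was 1.05 to 1.41 intervals per bp in the 4 libraries, and G128 replicate 1 had the fewest peaks and the lowest summits. Over the 27768 regions that all 4 lists shared, the median summit was 50.3 and 58.1 times the background on G128 and 67.3 and 68.7 times on G2, a general shift of 0.33 on the log2 scale. Because of that shift, differences between cultures in single regions are given as centred log2 differences, G2 minus G128, after each library's median over all shared regions had been subtracted.

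All 8 loci had at least 1 region with a peak in every library, and the loci differed far more from each other than the cultures did. Of the 71 regions, 46 (64.8%) were in all 4 lists, where 60.5% of all regions were. A peak in both lists of G2 and none on G128 was found in 4 regions (5.63%), where the share over all regions was 8.32%. The reverse pattern was found in 0 regions, where it was 0.37% of all. In 6 further regions (8.45%) only G128 replicate 1 lacked a peak, as in 9.48% of all regions. A single library held 11 regions (15.5%), again beside 15.5% of all. The last 4 were 3 regions in 1 library of each culture and 1 missing from G2 replicate 1 alone. The 25 regions missing from some list were narrow, with a median of 179 bp, and their summits reached at most 32.7 times the background. Absence from a list means that no peak was called there, not closed chromatin. The weakest summit of each list was 18.2 to 19.0 times the background, and the caller's settings are not given.

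**Figure D1:**
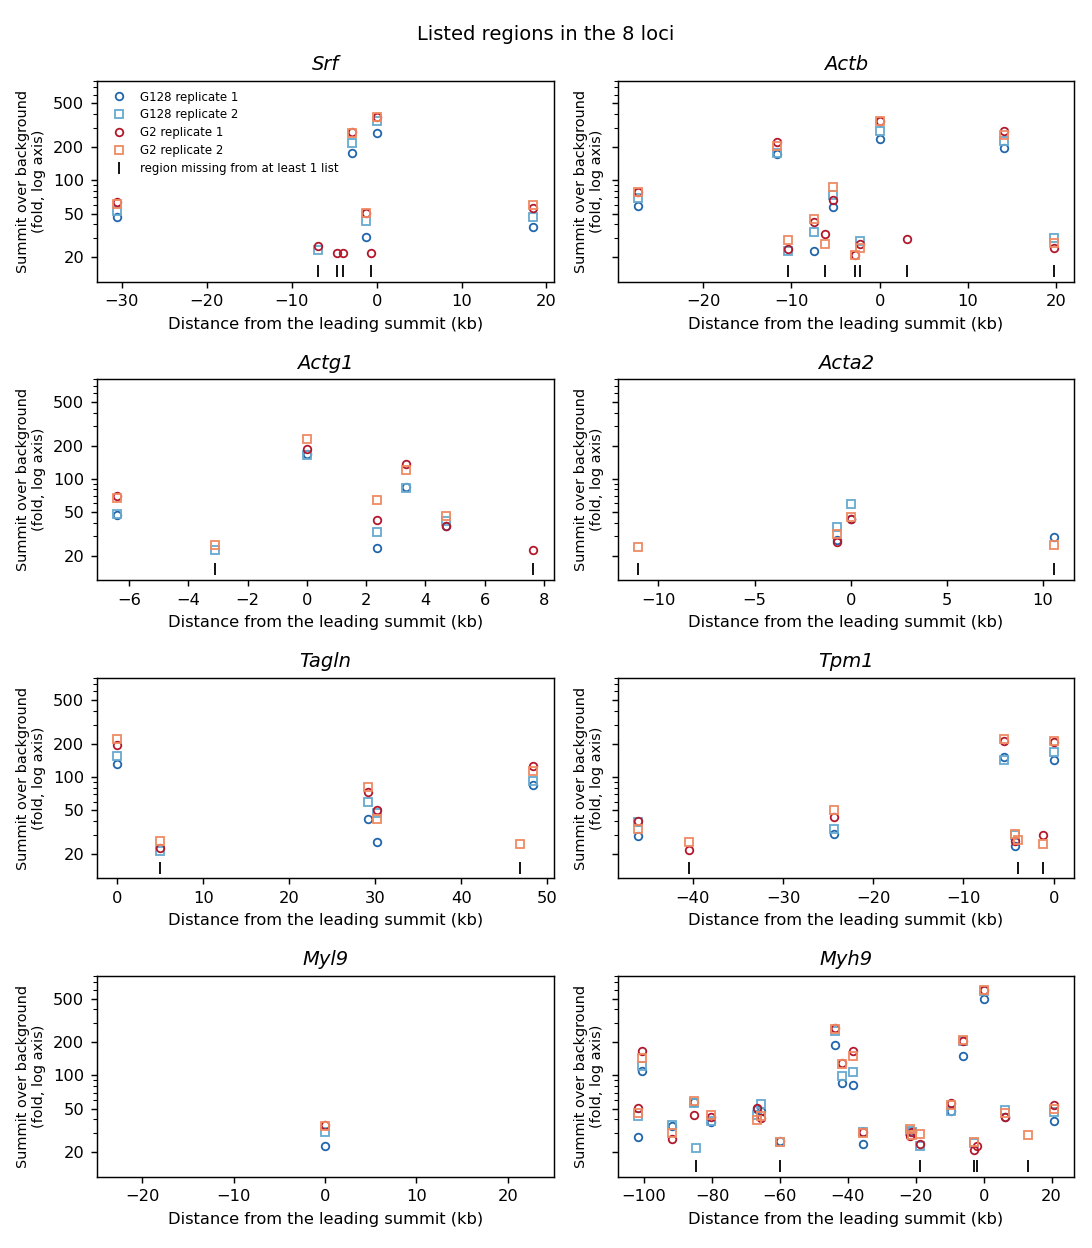
Summit over the background (vertical, log axis) of every listed region against its distance in kb from the leading summit of the locus, for the 4 libraries. Tall regions of over 100 times the background occurred in 6 loci, while Acta2 and Myl9 stayed below 60; ticks at the foot mark the 25 regions missing from at least 1 list.

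By their tallest region, Myh9, Srf and Actb stood highest and Acta2 and Myl9 lowest, with no correction for local DNA copies. The leading region of a locus was the one with the highest mean summit, and these means over 4 libraries were 567 ± 50.8 for Myh9, 343 ± 49.8 for Srf and 302 ± 54.3 for Actb (SD, n = 4). They were 187 ± 29.6 for Actg1, 183 ± 32.1 for Tpm1 and 177 ± 41.3 for Tagln (SD, n = 4). Acta2 had 47.4 ± 8.14 and Myl9 30.9 ± 5.91 (SD, n = 4). The ranges over libraries overlapped between Srf and Actb, although Srf was higher in 4 of 4 libraries, by 1.08 to 1.25 times. Actg1, Tpm1 and Tagln could not be ordered, since Actg1 exceeded Tpm1 in 2 of 4 libraries. Between the leaders of Tagln and Acta2 lay a gap of 2.63 to 5.03 times within a library. Leaders were not assigned to genes, and that of Tagln lay near the lower edge of its window. Among all shared regions the Myh9 leader had rank 67, in the top 0.241%, the Srf leader was in the top 2.39% and the Actb leader in the top 3.82%. The leaders of Actg1, Tpm1 and Tagln were within the top 12.7 to 13.9%, while that of Acta2 stood 62.5% and that of Myl9 88.9% of the way down the ranking.

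**Figure D2:**
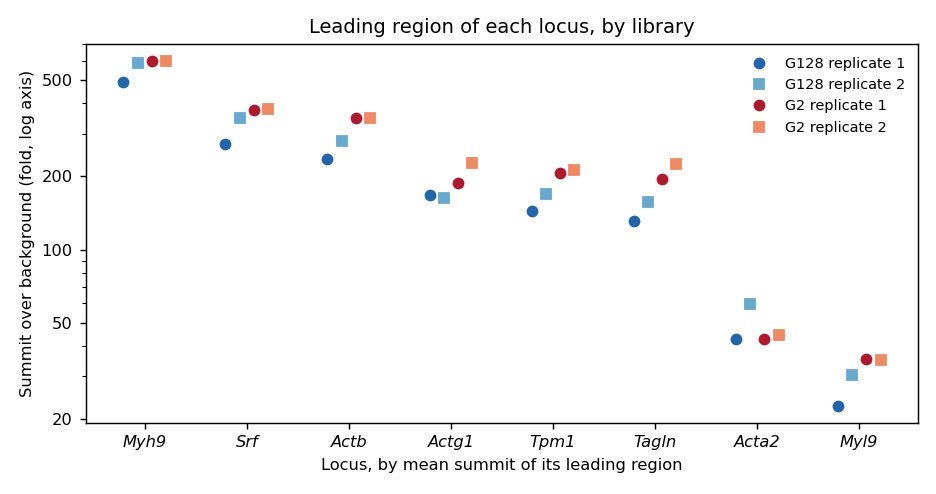
Summit over the background (vertical, log axis) of the leading region of each locus, with 1 point per library, loci ordered by their mean. Myh9 stood between 491 and 597 in all libraries and Myl9 between 22.8 and 35.5, and G128 replicate 1 was the lowest point of 7 of the 8 loci.

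The windows carried more peaks and more covered bases on G2, as the whole lists did. They held 55 and 62 peaks on G128 and 69 and 68 on G2, with means of 58.5 ± 4.95 and 68.5 ± 0.707 (SD, n = 2 each), a ratio of 1.17 beside 1.20 for the whole lists. Peaks covered 30758 and 36459 bp on G128 and 38856 and 42274 bp on G2, a ratio of 1.21 beside 1.24. The cultures did not overlap in peaks or in bases. For each, p was 0.333 by a two-sided exact permutation test, and with 6 assignments of 2 against 2 libraries no smaller p can occur. With the same number of strongest peaks from each list, the ratio of peaks was 0.946, so its direction turned with the length of the lists, while the ratio of bases was 1.14.

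Single loci differed in how much the covered length changed. In 6 of the 8 windows, those of Actb, Actg1, Tagln, Tpm1, Srf and Myl9, both G2 libraries covered more bases than either G128 library. The same held in 57.9% of the 12868 tiles of 60 kb across the genome with a peak in every list, a background tiling added after the data were seen, and for the whole lists. The ratio of means was 1.30 for Actb, 1.21 for Actg1, 1.16 for Tagln, 1.42 for Tpm1 and 1.25 for Srf. Myl9 had 2.12, from a single narrow peak. The Myh9 libraries overlapped between cultures with a ratio of 1.11, and those of Acta2 with 1.07. Coverage was densest at Actg1, with 13.6 to 18.1% of the window under peaks, and at Actb, with 10.9 to 17.0%.

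**Figure D3:**
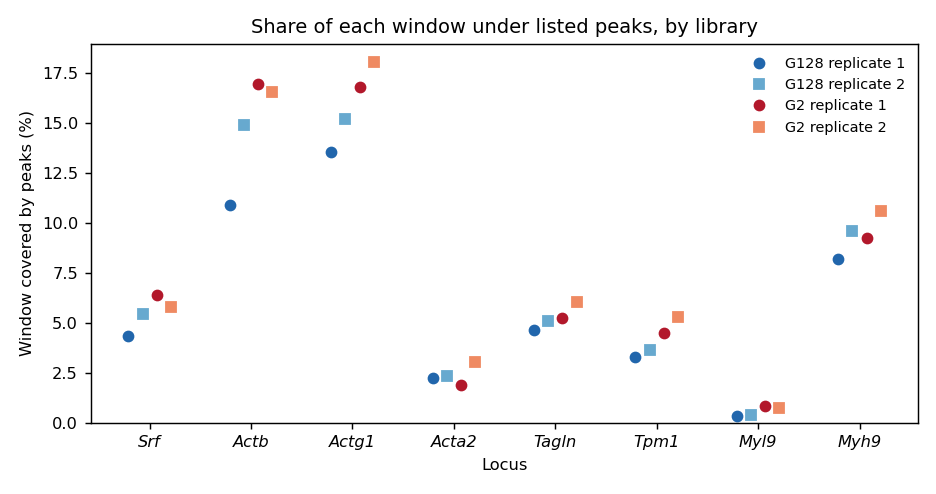
Share of each window under listed peaks in percent (vertical, from 0) for the 4 libraries. Actb and Actg1 had the highest shares, up to 18.1%, Myl9 stayed below 1%, and the G128 and G2 points overlapped for Myh9 and Acta2.

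Between cultures, summits in the windows stood higher on G2 to about the degree seen across the genome. For the 46 shared regions the median summit was 46.9 and 53.5 times the background on G128 and 56.4 and 60.3 times on G2. G2 was above G128 without overlap, with means of 58.3 ± 2.74 and 50.2 ± 4.63 (SD, n = 2 each), and p was again 0.333 by the exact permutation test. The difference of 0.22 on the log2 scale was below the shift of 0.33 in all shared regions, so after centring it was -0.11. In the 39 member regions of at least 200 bp in every list, the difference before centring was 0.35. Taken region by region, the median centred difference was -0.02, beside 0.01 over all shared regions. Before centring, both G2 summits exceeded both G128 summits in 30 of 46 regions (65.2%), where 67.6% of all shared regions did, and lay below both in 2 (4.35%), where 2.79% did. After centring, G2 lay above G128 without overlap in 15 (32.6%, beside 23.8% of all) and below it in 14 (30.4%, beside 21.9%).

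No member region passed the test of single regions, which does not show that summits were equal between cultures. On data simulated with a fixed spread, not one fitted to these libraries, this test missed most regions made to differ by 1 log2 unit. Its recovery in the real data is thus not known. In limma fitted on all 27768 shared regions, 0 of 46 were called higher and 0 lower at an adjusted p of 0.05, where 0% of all regions were called in either direction. At an unadjusted p under 0.05, 2 members were higher on G2 (4.35%, beside 5.57% of all shared regions) and 8 lower (17.4%, beside 8.67%). The 8 lower ones lay in 2 loci. They were 6 of the 18 shared regions of Myh9 and both shared regions of Acta2. By mean summit they ranked 56.1 to 90.1% of the way down all shared regions. The 2 higher ones were 1 in Actg1 and 1 in Myh9. The fit with a variance trend on summit height, added after the data were seen, called 0.601% of all regions higher and 0.864% lower, and again 0 of 46 members. Without centring, 9 of 46 members were called higher (19.6%) and 0 lower, where 21.1% and 0.245% of all regions were. Of the 9, 3 were in Actg1, 2 in Tagln, 2 in Tpm1, 1 in Actb and 1 in Myh9. For these uncentred higher calls, the members' share was close to that of the genome.

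**Figure D4:**
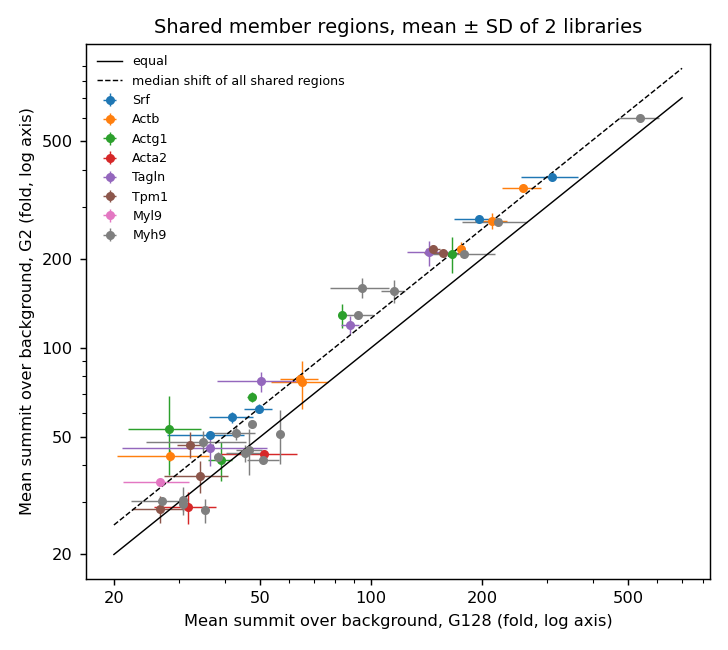
Mean summit over the background on G128 (horizontal) and on G2 (vertical) of the 46 shared regions, both on log axes, with the SD of 2 libraries as bars. Most points lay near the dashed line, which marks the general shift of 0.33 on the log2 scale, while both Acta2 regions and several Myh9 regions lay at or below the solid line of equality.

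The Srf window, at chr17:46660001-46720000, held 9 regions, of which 5 were shared. On GRCm38.p6 its nearest protein-coding neighbours are Cul9 and Ptk7. The strongest region, chr17:46692736-46693814, had summits of 271 and 349 times the background on G128 and 376 and 378 times on G2. Before centring G2 was above G128 without overlap. The centred difference was -0.04 ± 0.14 (SE), with a limma adjusted p of 0.931, so it moved with the general shift. A tall companion at chr17:46689679-46690757, 2.93 kb away, had summits of 176 and 217 times the background on G128 and 277 and 267 times on G2. Its summit fell within 1 bp of the same position in all 4 libraries. Of the 4 regions missing from some list, 3 were listed in G2 replicate 1 alone and lay within 4.68 kb of the leading summit.

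Actb encodes the cytoplasmic beta-actin of nearly all cells, and its window at chr5:143640001-143690000 was the densest, with 12 regions, or 24.0 per 100 kb. Its leading region, chr5:143666817-143669379, was 2563 bp wide. It reached 236 and 280 times the background on G128 and 347 and 347 times on G2. The G2 libraries were above and close to each other, and the centred difference was 0.10 ± 0.14 (SE), with a limma adjusted p of 0.789. The regions at chr5:143682156-143683083, with 198, 227, 281 and 256 times in the order G128 replicates 1 and 2 and G2 replicates 1 and 2, and at chr5:143656378-143657449, with 173, 178, 224 and 207 times, flanked the leader at 14.1 and 11.6 kb. Their summits kept their place within 1 bp in the 4 libraries.

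Actb also held 2 of the 4 regions listed only on G2 in both its libraries. The first, chr5:143662086-143662579, reached 32.7 and 26.3 times the background on G2. The second, chr5:143665604-143665859, reached 20.9 and 21.2 times, close to the weakest summits listed. In 3 more regions of the window only G128 replicate 1 lacked a peak. The shared region chr5:143660540-143661394 had one of the 3 highest centred differences of all members. Its summits were 22.8 and 34.0 times the background on G128 and 41.8 and 44.6 times on G2. The centred difference of 0.30 ± 0.16 (SE) had a limma adjusted p of 0.432. Fbxl18 and Fscn1, the latter encoding the actin-bundling protein fascin, are the neighbours of Actb on GRCm38.p6.

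Actg1, which encodes the cytoplasmic gamma-actin, had 7 regions packed into 14.9 kb of its window at chr11:120190001-120230000. The leading region, chr11:120208846-120212252, was the widest of all members at 3407 bp, and was listed as 2 peaks in each G128 library and as 1 in each G2 library. Its summits were 168 and 163 times the background on G128 and 187 and 228 times on G2. The centred difference was -0.01 ± 0.16 (SE), with a limma adjusted p of 0.986. At higher coordinates, chr11:120213815-120214649 had the highest centred difference of the 46 regions, 0.57 ± 0.20 (SE). Its summits were 23.7 and 32.6 times on G128 and 41.8 and 64.3 times on G2, so the groups did not overlap and the G2 libraries stood well apart from each other. The limma adjusted p was 0.239. It was 0.163 with the variance trend and 0.000705 to 0.758 over all alternatives, lowest without centring.

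The neighbouring region chr11:120214803-120215448 reached 84.4 and 82.2 times the background on G128 and 137 and 119.8 times on G2. The cultures did not overlap and the mean ratio was 1.54, but the centred difference of 0.29 ± 0.16 (SE) had a limma adjusted p of 0.435. The third region of this cluster, chr11:120216145-120216659, overlapped between cultures, with 37.0 and 41.1 times on G128 and 37.3 and 46.0 times on G2. Bahcc1 and Fscn2 are the neighbours of Actg1 on GRCm38.p6.

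Acta2, which encodes the smooth muscle alpha-actin and is a marker of contractile myofibroblasts, differed from the cytoplasmic actins by its low summits. Its window at chr19:34290001-34350000 held 4 regions, and the 2 shared ones lay side by side, with summits 0.710 kb apart. The stronger, chr19:34329653-34330221, had 42.7 and 59.5 times the background on G128 and 42.8 and 44.6 times on G2. The weaker, chr19:34328693-34329525, had 27.5 and 36.1 times on G128 and 26.4 and 31.4 times on G2. The cultures overlapped in both, and G128 replicate 2 was the highest library.

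Relative to the general shift the Acta2 regions stood lower on G2. The centred differences were -0.54 ± 0.15 and -0.46 ± 0.15 (SE). After centring, G2 was below G128 without overlap in both, as in 21.9% of all shared regions. Their limma adjusted p-values were 0.165 and 0.216, so neither passed. That of the stronger was 0.135 with the variance trend and 0.0523 to 0.454 over all alternatives. Among the other regions of the window, 1 was listed in G2 replicate 2 alone and 1 in a single library of each culture, with no summit above 29.4 times the background. Stambpl1 and Fas are the neighbours on GRCm38.p6.

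Tagln, which encodes the actin-binding protein transgelin or SM22-alpha, had 4 shared regions in its window at chr9:45710001-45770000, and the centred difference was above 0 in 4 of 4, where 52.2% of all shared regions were above 0. The leading region, chr9:45714462-45715460, reached 131 and 157 times the background on G128 and 196 and 224 times on G2. That was a mean ratio of 1.46 with no overlap, and a centred difference of 0.22 ± 0.14 (SE) with a limma adjusted p of 0.530. The region lay near the window's lower edge, and the next strongest, chr9:45762172-45763875, was 48.3 kb away with 84.4, 91.4, 126 and 114 times in the order given above. Between them, chr9:45743812-45744315 had 41.7 and 58.8 times on G128 and 72.8 and 81.1 times on G2, and a mean ratio of 1.53. Pcsk7 and Sidt2 are the neighbours of Tagln on GRCm38.p6, and which gene a region belongs to was not assigned.

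Tpm1 encodes a tropomyosin, which lies along the actin filament and regulates myosin's access to it. Its window at chr9:66850001-66920000 held 8 regions, among them 2 strong ones 5.52 kb apart. The leader, chr9:66896441-66897653, had 144 and 169 times the background on G128 and 206 and 212 times on G2. The second, chr9:66891157-66892041, had 152 and 143 times on G128 and 211 and 221 times on G2, with its summit at the same base in all 4 libraries. Before centring, G2 was above G128 without overlap in both, as in 67.6% of all shared regions. The centred differences were 0.09 ± 0.14 and 0.22 ± 0.15 (SE), with limma adjusted p-values of 0.807 and 0.556. The other regions listed only on G2 in both its libraries were here. At chr9:66895921-66896301, 1.22 kb from the leading summit, G2 reached 30.0 and 24.8 times the background, and at chr9:66856597-66856942 it reached 21.8 and 25.6 times.

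Myl9 encodes a regulatory light chain of smooth muscle and non-muscle myosin, whose phosphorylation switches on contraction. Its window at chr2:156580001-156630000 had a single region, chr2:156600816-156601307, the lowest density of the 8 loci at 2 per 100 kb. Summits were 22.8 and 30.5 times the background on G128 and 35.5 and 35.1 times on G2. The peak was 181 and 194 bp wide on G128 and 432 and 362 bp on G2, so both height and width were above those of G128 in both G2 libraries. The G128 summits were not far above the weakest ones listed. The centred difference was 0.09 ± 0.15 (SE), with a limma adjusted p of 0.825.

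Myh9 encodes the heavy chain of non-muscle myosin IIA, the motor of stress fibres, and its window at chr15:77570001-77700000 was the longest, with 24 regions, of which 18 were shared. The leading region, chr15:77671214-77673295, had summits of 491 and 585 times the background on G128 and 597 and 596 times on G2. G128 replicate 1 was lower than the other libraries, which lay close together. The centred difference was -0.18 ± 0.14 (SE), with a limma adjusted p of 0.598. The next strongest, chr15:77628418-77629974 and chr15:77666262-77667111, had mean summits of 221 and 179 times on G128 and of 267 and 208 times on G2.

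Within Myh9 the centred differences ran from -0.66 to 0.43, the widest range of the loci, and 14 of 18 were below 0. Over all shared regions of the genome, 47.8% were below 0. The 2 lowest values of all members lay in this window. At chr15:77580990-77581201 summits were 35.1 and 35.4 times the background on G128 and 26.4 and 30.0 times on G2. At chr15:77607183-77607902 they were 47.4 and 54.6 times on G128 and 40.9 and 42.4 times on G2. In both regions G2 was below G128 without overlap even before centring, and they were the only members of which this held. It held for 2.79% of all shared regions. The centred differences were -0.66 ± 0.15 and -0.62 ± 0.14 (SE), with limma adjusted p-values of 0.117 and 0.111. With the variance trend they were 0.095 and 0.075, and over all alternatives 0.0134 to 0.342 and 0.0202 to 0.302.

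The same window also held a region with one of the highest differences. At chr15:77634055-77635032 summits were 82.5 and 107 times the background on G128 and 168 and 150.5 times on G2, a mean ratio of 1.68 without overlap. The centred difference was 0.43 ± 0.15 (SE), with a limma adjusted p of 0.236. It was 0.086 with the variance trend and 0.00232 to 0.999 over all alternatives. It lay 38.6 kb from the leading summit and beside chr15:77630496-77631662, whose centred difference was 0.16 ± 0.14 (SE). At lower coordinates, the 7 shared regions more than 60 kb from the leading summit had centred differences of -0.66 to 0.16, of which 5 were below 0 and the 2 farthest, at 100.7 and 101.7 kb, above it. Apol8 and Txn2 are the neighbours of Myh9 on GRCm38.p6.

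**Figure D5:**
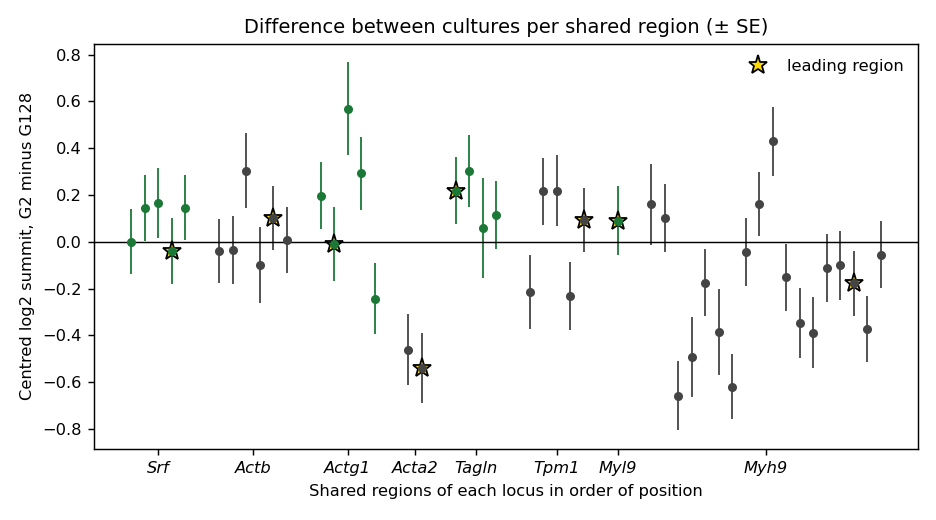
Centred log2 difference of the summit, G2 minus G128 (vertical, bars are the SE from limma), of the 46 shared regions in order of position within each locus, with a star on the leading region. Tagln and Srf regions lay mostly above 0, both Acta2 regions near -0.5, and Myh9 ranged from -0.66 to 0.43; no region passed an adjusted p of 0.05.

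Summit positions in the shared member regions were stable across libraries. The range of the summit over the 4 libraries had a median of 34 bp, beside 40 bp for all shared regions, and was at most 100 bp in 37 of 46 regions (80.4%, beside 77.1%). The exceptions with the widest range, up to 666 bp, included weak regions of Myh9 and Acta2. Member regions had a median width of 695.5 bp, beside 627 bp for all. A region was split into several peaks in at least 1 list in 10 of 46 (21.7%, beside 16.2%). The median of their mean summits was 52.5 times the background, below the 60.9 times of all shared regions, and 6 of 46 (13.0%) were among the strongest 10% of the genome. Like the shared regions as a whole, the loci thus combined a few tall sites with many weaker ones.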

How the data were processed

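Peak lists of 4 ATAC-seq libraries (2 per culture) were used. Per the submitters' processing notes, tools included Bowtie2 2.2.5, SAMtools 1.7 and Genrich 0.5 and the build was mm9. Their settings, read shifting and duplicate handling are not given in the sources used here. The lists deposited by the authors give each peak a score, a signal and −log10 values of p and q. These belong to their own list, and the signal served only to rank peaks. Positions are counted from 1.

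The deposited −log10 p-values gave the summit heights: their lowest 100 distinct values fitted successive whole numbers under a log-normal background (root mean square error at most 1.58e-07, next best at least 0.00164). All recovered heights lay within 0.00179 of a whole number. The height divided by the background mean is the summit over the background. Depth in reads is not known, and summits over the background do not stand for it.

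The test of single regions used limma 3.58.1 in R 4.3.3 on centred log2 summits, with Benjamini-Hochberg adjustment over 27768 regions and no replicate block. Values per library were compared by exact permutation tests. Scripts ran in Python 3.11.15. Named were, per locus, the region with the highest mean summit, regions called or listed in a single culture, and the 3 largest differences in each direction. The other regions given were chosen after their values were seen. Other genes of the pathway were not analysed here, since no mm9 annotation was used. The members and lists were chosen with earlier results of these data known. Steps were tested on simulated data. In 10 runs, the limma fit without the trend called 1 to 37 of 100 regions made to differ by 1 log2 unit. The fit with the trend called 63 to 76 of 100. The spread in these runs was a fixed setting, not fitted to these libraries.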

Additional observations from a re-analysis of the deposited data

How the results depend on the processing

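The variance trend was chosen after seeing the data, and the other alternatives were planned. Over all shared regions, limma called 0 higher and 0 lower on G2. Without centring it called 5869 and 68, with the replicate block 274 and 656, in regions averaging 40 times the background or more 27 and 29, with the trend 167 and 240, and with the trend and no centring 7384 and 61. Leaving out each library gave 0 to 3 and 0 to 15. Of the member regions, 9 were called higher without centring, 12 with the trend and no centring, and 1 (Actg1, chr11:120213815-120214649) with the replicate block, which also called 2 of Myh9 lower (chr15:77580990-77581201 and chr15:77607183-77607902). The causes were not tested, except that omitting the centring leaves in the general shift of 0.33. Labels do not say that equal replicate numbers mark a shared origin, and deviations of same-numbered libraries had a correlation of 0.00279 over 27768 regions.

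The median summit difference of the member regions, 0.22 (log2), was -0.11 after division by the library's median over all shared regions. Without that division, it was 0.35 in the 39 regions of at least 200 bp in every list. The ratio of peaks was 0.946 with the same number of strongest peaks from each list. It was 1.17 with the replicate block, and the ratio of bases 1.21. Member regions listed on G2 only, 4 in the full lists, were 2 with the same number of peaks, 1 with p at least 10 times below the weakest, and 5 to 11 without each library in turn. Those on G128 only, 0 in the full lists, were 3 with 50% reciprocal overlap, 1 with the lower p, and 0 to 1 without each library.

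Of 204 values of the 16 regions whose adjusted p the report gives, 172 kept direction and call. Without centring, with or without the trend, the leaders of Actg1, Myh9 and Srf had 0.32, 0.15 and 0.29. With the mean of a region's summits, the leaders of Actg1, Myh9 and Actb had 0.71, 0.26 and -0.38, and chr15:77634055-77635032 of Myh9 had -0.00098. With 50% reciprocal overlap the Actg1 leader had 0.00175. Without each library in turn the leaders of Actg1, Srf and Myl9 had -0.14 to 0.12, -0.11 to 0.038 and -0.016 to 0.20. Weak regions rest on few intervals: the weakest listed summits had 20 to 26.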
